A study of Sus scrofa with 2 samples.

Results

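Langerhans cells of pig skin were selected on the transcript of CD207 (langerin), the endocytic lectin that defines this cell type, and 85 of the 6998 cells within the study's quality limits met the rule. These cells were chosen by their counts: at least 1 CD207 UMI, fewer than 5 UMIs of CCR7, fewer than 10 of C1QA plus C1QB, no CD3E, under 1% of the cell's UMIs on COL1A1, COL1A2 and COL3A1, and under 0.3% on KRT5. A UMI is a molecular tag that lets copies of 1 transcript be counted once. CD207, CCR7, complement C1q, CD3E, collagen and KRT5 therefore describe the choice and are not findings about the cells.

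The study dissociated dorsal skin of healthy male farm pigs and made 1 droplet library of fresh cells and 1 of cryopreserved cells, each from an input of about 8000 cells. The cryopreserved cells had been frozen in 90% FBS with 10% DMSO, stored in liquid nitrogen and thawed. Full skin, epidermis and dermis together, was digested at once. The authors describe ways to remove dead cells before library preparation, but their library methods do not name one. The extraction text given for both samples describes freezing, the titles and treatment labels name only one of them as frozen, and nothing says whether both came from the same animal. No replicate exists within a condition, so every difference below compares this pair of libraries, and no test was run. Intervals cover counting error or, for medians, the spread over the cells or genes used, and none covers variation between replicate libraries.

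Langerhans cells are antigen-presenting cells that live among the keratinocytes of the epidermis, where they are held by epithelial adhesion molecules and renew themselves locally. They take up antigen, load it on MHC class II molecules and, once activated, raise the chemokine receptor CCR7 and leave for the draining lymph node. Langerin forms their Birbeck granules, and a subset of dermal dendritic cells can carry it too.

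The fresh library held 26 of these cells among 2775 (0.937%, exact binomial interval 0.613 to 1.37%). The cryopreserved library held 59 among 4223 (1.40%, interval 1.07 to 1.80%). The share was 0.460 percentage points higher in the cryopreserved library, with a Newcombe interval from -0.0733 to 0.959 that includes 0. A share of cells can differ through loss of these cells or of others, and the counts do not separate the cases. No barcode of these cells was shared between the libraries, although 6 barcodes occurred in both matrices.

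CD207 (chromosome 3, 71668233 to 71674871, plus strand, Sscrofa11.1) was thinly sampled. Fresh cells carried 1 to 13 CD207 UMIs with a median of 2, and cryopreserved cells 1 to 20 with a median of 2. A lone CD207 UMI was all that 11 fresh and 21 cryopreserved cells had, and 11 and 24 had 4 or more. Background was low: CD207 was seen in 0 of 101 fresh and 0 of 197 cryopreserved C1Q cells (at least 10 UMIs of C1QA plus C1QB, other limits as above), which over the 298 cells allows a share of up to 1.01% (3 counts of the total). In collagen-rich cells, which hold 1% or more of their UMIs on collagen, it was seen in 0.293% of fresh and 0.270% of cryopreserved cells, at median depths of 13847 and 10247.5 UMIs against 12368.5 and 8502 in the Langerhans cells.

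Most cells that carried CD207 but missed the rule did so on CCR7. Of 47 fresh and 96 cryopreserved cells with CD207, the CCR7 limit removed 17 and 29, CD3E 2 and 2, collagen 3 and 4, KRT5 0 and 2, and C1q 0 and 1. Just inside the limit lay 2 fresh cells with 4 CCR7 UMIs and 4 cryopreserved cells with 3, while 18 and 46 cells had none. Just outside it, CCR7 started at 5 and 6 UMIs, with medians of 23.5 and 18.5 and maxima of 92 and 75 in cells removed on this limit alone. The plot of CD207 against CCR7 shows that cells above and below the line overlapped in their CD207 counts. The highest counts lay above the line, at 48 UMIs in fresh and 23 in cryopreserved cells, against 13 and 20 in the Langerhans cells.

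**Figure D1:**
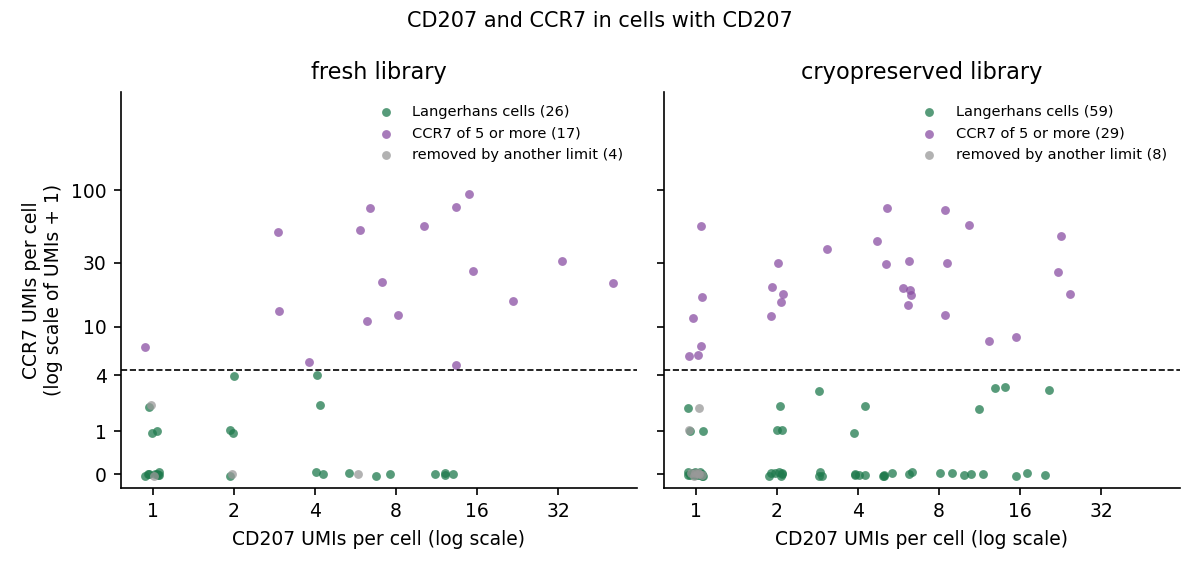
Each point is 1 cell with CD207 within the quality limits; the x axis gives its CD207 UMIs and the y axis its CCR7 UMIs, both on log scales (y as UMIs + 1), with points spread slightly. Green points are the 26 fresh and 59 cryopreserved Langerhans cells, purple points the 17 and 29 cells with 5 or more CCR7 UMIs, grey points cells removed by another limit, and the dashed line marks the CCR7 limit.

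BCL2A1, a survival factor of the BCL2 family and the other marker given for these cells, was present in nearly all of them (chromosome 7, 48887227 to 48897667, minus strand). Fresh cells held 0 to 63 BCL2A1 UMIs with a median of 16, and 23 of 26 cells had at least 1. Cryopreserved cells held 0 to 60 with a median of 17, and 54 of 59 cells had at least 1. Collagen-rich cells showed it in 0.878% and 1.08%, but CCR7 cells (5 or more CCR7 UMIs, other limits as above) in 97.6% and 95.2% and C1Q cells in 71.3% and 68.5%, so it does not mark the Langerhans cells alone. Median depth was 16264 and 11859 UMIs in CCR7 cells and 10998 and 8807 in C1Q cells. Shares of cells with a transcript, here and below, are not adjusted for depth. Myeloid identity was clear: at least 3 of 8 general myeloid genes were seen in 25 of 26 fresh and 59 of 59 cryopreserved cells, led by TYROBP, a signalling adaptor, in 25 and 58 cells. LYZ, the eighth gene, was at 0 in every filtered cell of both libraries, so its row carries no information on any cell type here.

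Transcripts of the Langerhans lineage beyond the rule were present to different degrees. EPCAM, an adhesion molecule of epithelia and Langerhans cells, was seen in 13 of 26 fresh cells (exact interval 29.9 to 70.1%) and 34 of 59 cryopreserved cells (57.6%, interval 44.1 to 70.4%), against 0.990% and 1.02% of C1Q cells and 48.8% and 38.1% of CCR7 cells. FCER1A, the alpha chain of the high-affinity IgE receptor, was seen in 16 and 36 cells, against 1.98% and 0.508% of C1Q cells and 48.8% and 64.3% of CCR7 cells. ID2, a transcriptional regulator needed for Langerhans cells, was seen in 24 and 55 cells, but also in 70.3% and 66.0% of C1Q cells and 78.0% and 69.5% of collagen-rich cells. RUNX3, a factor downstream of TGF-beta in this lineage, was seen in 15 and 28 cells (57.7% and 47.5%), against 33.7% and 18.3% of C1Q cells and 27 of 41 and 21 of 42 CCR7 cells. CDH1, the E-cadherin that ties these cells to keratinocytes, was seen in 6 and 11 cells (23.1% and 18.6%), against 0.990% and 0.508% of C1Q cells, 9.76% and 2.38% of CCR7 cells and 19.7% and 25.3% of all other filtered cells, KRT5-rich cells among them. Of the 22 lineage genes that could be matched, 21 had a UMI, and CCR6, a receptor for epidermal homing, was at 0 in these cells with 1 UMI in all other cells together. CD1A could not be matched, and its relative CD1E gave 15 fresh and 14 cryopreserved UMIs.

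Transcripts of dendritic cell factors were also found. FLT3, the receptor that drives dendritic cell growth, was seen in 18 fresh and 38 cryopreserved cells. It was seen in 4.95% and 0.508% of C1Q cells and 75.6% and 69.0% of CCR7 cells. IRF4, a factor of dendritic cells that prime helper T cells, was seen in 15 and 35 cells. Its shares were 22.8% and 20.3% in C1Q cells and 70.7% and 73.8% in CCR7 cells. IRF8, a factor of cross-presenting dendritic cells, was seen in 14 and 35 cells (53.8% and 59.3%). C1Q cells carried IRF8 more often, at 83.2% and 81.7%, as did CCR7 cells, at 85.4% and 78.6%, and collagen-rich cells reached 21.8% and 17.2%. ZBTB46, which marks classical dendritic cells, was seen in 17 and 23 cells, against 20.8% and 17.8% of C1Q cells and 48.8% and 47.6% of CCR7 cells. CSF1R, the receptor for the growth factors CSF1 and IL-34 that maintain Langerhans cells, was seen in 22 and 43 cells. It was seen in 99.0% and 98.0% of C1Q cells and 70.7% and 73.8% of CCR7 cells. Whether any of these cells are langerin-bearing dermal dendritic cells was not tested.

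The antigen-presentation genes were at a high level in nearly every cell. Summed over 11 matched MHC class II genes, the level was 43432 CPM (UMIs per 1000000) in fresh and 59084 CPM in cryopreserved Langerhans cells (scaled with edgeR's TMM factors, as are the levels that follow unless stated). The same sum was 61970 and 72217 CPM in CCR7 cells, 15970 and 14701 in C1Q cells, and 4138 and 4777 in all other filtered cells. CD74, the invariant chain that guards the peptide groove, ranged from 5 to 643 UMIs per fresh cell with a median of 302, and from 16 to 672 per cryopreserved cell with a median of 258. SLA-DRA, the pig DR alpha chain, ranged from 0 to 355 with a median of 79 and from 1 to 412 with a median of 68. The 2 libraries overlapped over nearly their whole range for both genes.

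Costimulatory genes accompanied them. CD83, which stabilises MHC class II at the surface, was carried by 25 of the 26 fresh cells and 58 of the 59 cryopreserved ones. It was also seen in 94.1% and 89.3% of C1Q cells and 39.7% and 38.5% of collagen-rich cells. CD86, a ligand of CD28, was found in 23 and 43 cells, and CD80, its partner ligand, in 20 and 41. C1Q cells carried CD86 in 42.6% and 36.0% and CD80 in 35.6% and 31.5%. CCR7 cells carried CD86 in 80.5% and 90.5% and CD80 in 85.4% and 88.1%. CD40, through which helper T cells license antigen-presenting cells, was found in 18 and 43 cells. IDO1, an enzyme that breaks down tryptophan in mature dendritic cells, was at 0.

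Chemokine and cytokine transcripts were uneven from cell to cell, and CXCL2, a neutrophil attractant, gave the most UMIs of the 18 matched genes in both libraries. CXCL8, another neutrophil attractant, ranged from 0 to 194 UMIs in fresh and 0 to 190 in cryopreserved cells, with medians of 13 and 3 and detection in 18 and 35 cells. CCL5, a T cell attractant, ranged from 0 to 101 and 0 to 169 with medians of 6 and 6. IL18, a cytokine that Langerhans cells and keratinocytes make, was seen in 24 and 45 cells. It was seen in 51.5% and 38.6% of C1Q cells and 4.59% and 3.37% of collagen-rich cells. TGFB1, which keeps Langerhans cells in place, was seen in 24 and 57 cells. IL12B and IL23A, subunits of cytokines that polarise helper T cells, were at 0. IL1R2, a decoy receptor for IL-1, was seen in 22 and 48 cells, against 16.8% and 7.61% of C1Q cells and 70.7% and 78.6% of CCR7 cells.

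A neighbouring group was set by CCR7, which mature dendritic cells raise on leaving the skin. The CCR7 cells numbered 41 fresh and 42 cryopreserved, and 16 and 28 of them also carried CD207. Among 2734 genes with at least 50 UMIs over both groups in each library, 38 (1.39%) were at least 2-fold higher in Langerhans cells in both libraries and 68 (2.49%) at least 2-fold lower. This split rests on the scaling: with total UMIs it was 66 higher and 43 lower, since that scaling moved the ratios up by 0.34 (log2) for fresh and 0.09 for cryopreserved cells. None of the 10 measured MHC class II genes differed 2-fold in both libraries, and SLA-DRA was lower, at log2 ratios of -0.83 and -0.49. None of the 15 measured lineage genes differed 2-fold in both libraries either. The lineage list summed to 6408 and 8421 CPM in Langerhans cells and to 10106 and 8721 in CCR7 cells.

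Genes of dendritic cell maturation were among those lower in Langerhans cells than in CCR7 cells. Of 10 measured costimulation and maturation genes, 4 were at least 2-fold lower in both libraries and 0 higher, but a gene can be measured through the CCR7 cells alone, and one of the 4 was CCR7, set by the rule. Of the 8 with at least 50 UMIs in each group over both libraries, 3 were lower, against 1.53% of all genes that met this minimum. These were FSCN1 (log2 -2.19 and -2.30), the actin bundler of dendrites, the inhibitory ligand PDCD1LG2 (-1.80 and -1.13) and the NF-kB adaptor TRAF1 (-1.57 and -1.25). The T cell attractant CCL5 was lower, at log2 -1.62 and -1.10. LGMN, an asparaginyl endopeptidase of lysosomes, was lower, at log2 -3.54 and -2.36. The antioxidant enzyme SOD2 was lower, at log2 -2.44 and -2.25, and PTGS2, the inducible cyclooxygenase, at -2.78 and -1.94. IL7R, the receptor for IL-7, with 13 and 13 UMIs in Langerhans cells, stood at log2 -3.04 and -3.24. TOX, a nuclear factor, with 3 and 7 UMIs, gave 8 and 12 CPM against 384 and 311. IL7R and TOX missed the minimum of 50 UMIs in each group and were measured only through the CCR7 cells, where they are high. AREG, an EGF receptor ligand, had 0 fresh UMIs against 162 CPM in CCR7 cells. It was lower, at log2 -2.16 in the cryopreserved library, where 1 cell held 33 of its 61 UMIs.

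FLT1, a VEGF receptor, led the genes higher in Langerhans cells than in CCR7 cells. Its level was 747 and 753 CPM against 103 and 101, a log2 ratio of 2.86 and 2.90, and it was seen in 15 of 26 fresh and 28 of 59 cryopreserved cells, with 107 of its 276 fresh and 114 of its 428 cryopreserved UMIs in 1 cell each. TXNIP, a redox regulator, was higher by 1.87 and 1.94, and EPHA4, an ephrin receptor, by 1.41 and 2.21. LTC4S, which makes leukotriene C4, stood at log2 1.92 and 2.38. With 22 and 11 UMIs in CCR7 cells, LTC4S missed the minimum of 50 UMIs in each group. It was measured only through the Langerhans cells, where it is high. Stress genes were higher as well. The inducible chaperone HSP70.2 stood at 4264 and 4387 against 893 and 134 CPM, and at 4063 and 3178 CPM in C1Q cells. DNAJB1, its co-chaperone, was higher by 2.27 and 3.52, and BAG3, another co-chaperone, by 1.64 and 2.27. The highest cell held 534 of the 1575 fresh and 602 of the 2493 cryopreserved HSP70.2 UMIs. For DNAJB1 it held 83 of 199 and 70 of 363. Of 12 measured heat shock genes, a list without HSP70.2, 3 were at least 2-fold higher in both libraries (HSPH1, DNAJB1 and BAG3). Of 10 immediate early genes 3 were (FOSB, JUN and KLF4), against the background of 1.39%. Against C1Q cells and all other cells 0 genes of either list were 2-fold higher in both libraries. With at least 50 UMIs in each group, KLF2 was lower than in C1Q cells, and IER3, KLF2 and KLF4 were lower than in all other cells.

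In the fresh library this stress difference was smaller without the cells with 1 CD207 UMI. With at least 2 CD207 UMIs required, which left 15 fresh and 38 cryopreserved cells, the log2 ratio to CCR7 cells was 0.13 for HSP70.2 and 0.05 for DNAJB1 in the fresh library and 4.56 and 3.10 in the cryopreserved one. BAG3 turned to -0.07 in the fresh library under that minimum and stayed at 1.56 in the cryopreserved one. The 3 immediate early genes were then at 0.81 (FOSB), 0.24 (JUN) and 0.37 (KLF4) in the fresh library and at 1.02, 0.94 and 0.60 in the cryopreserved one, and no measured gene of both lists was then 2-fold higher in both libraries.

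Against the C1Q cells, whose complement genes mark macrophages, the differences were larger and more numerous. Among 4188 measured genes, 306 (7.31%) were at least 2-fold higher in Langerhans cells in both libraries and 513 (12.2%) at least 2-fold lower. With at least 50 UMIs in each group over both libraries, it was 275 higher and 132 lower of 2736, so the split rests on the filter. Higher levels covered antigen presentation and costimulation. Of 10 measured MHC class II genes, 6 were higher and 1, the cathepsin CTSS, was lower. SLA-DRA was higher by log2 ratios of 1.77 and 2.67, CD74 by 1.58 and 2.09, and CIITA, the master regulator of the class, by 1.38 and 2.18. CD86 was higher by 2.04 and 2.44 and CD80 by 2.53 and 2.39, and 4 of 8 costimulation genes were higher with 0 lower.

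Lineage genes also separated the groups. Of 11 lineage genes with at least 50 UMIs in each group over both libraries, 5 were higher than in C1Q cells, against 10.1% of all genes that met this minimum. Among them were IRF4 (log2 2.68 and 3.13), RUNX3 (1.11 and 1.55) and ID2 (1.35 and 1.81), and CSF1R was lower (-1.63 and -2.04). FLT3, with 10 and 4 UMIs in C1Q cells, missed the minimum and stood at 4.26 and 6.40. FCER1A stood at 254 and 294 CPM in Langerhans cells. MREG, which acts in melanosome and lysosome traffic, stood at 433 and 364 against 5 and 9, and UPP1, a uridine phosphorylase, at 301 and 239 against 10 and 3. MMP12, the macrophage elastase, stood at 217 and 164 CPM and was at 0 in C1Q cells of both libraries, although only 8 of 26 and 18 of 59 Langerhans cells carried it. FCER1A, MREG, UPP1 and MMP12 also missed the minimum. They were measured only through the Langerhans cells, where they are high.

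Several degradative genes were lower. Of 17 measured lysosome and antigen-processing genes, 11 were at least 2-fold lower than in C1Q cells in both libraries and 0 higher, but some were measured only through the C1Q cells where they are high. Of the 13 with at least 50 UMIs in each group over both libraries, 7 were lower, against 4.82% of all genes that met this minimum. Among these 7 were the cathepsins CTSB (-1.83 and -2.16) and CTSZ (-1.32 and -1.26) and LGMN (-5.97 and -5.67). The cholesterol carrier NPC2 (-1.99 and -1.91) and the membrane glycoprotein LAMP1 (-3.54 and -3.64) were among them too. The cathepsin CTSD (-4.85 and -6.20) missed this minimum and was measured only through the C1Q cells, where it is high. CTSL gave 1 fresh UMI and 0 cryopreserved UMIs, against 2158 and 3558 CPM in C1Q cells. CST3, the cathepsin inhibitor, was alike in level, with log2 ratios of 0.08 and 0.01. Of 5 interferon response genes that met the same minimum 4 were lower, such as IFI6 (-1.53 and -2.38). C4BPA, a complement regulator, gave 1 UMI in each library against 8182 and 13229 CPM, and CD209, a lectin of dermal macrophages and dendritic cells, gave 0 and 1. Like CTSD, the genes CTSL, C4BPA and CD209 were measured only through the C1Q cells.

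**Figure D2:**
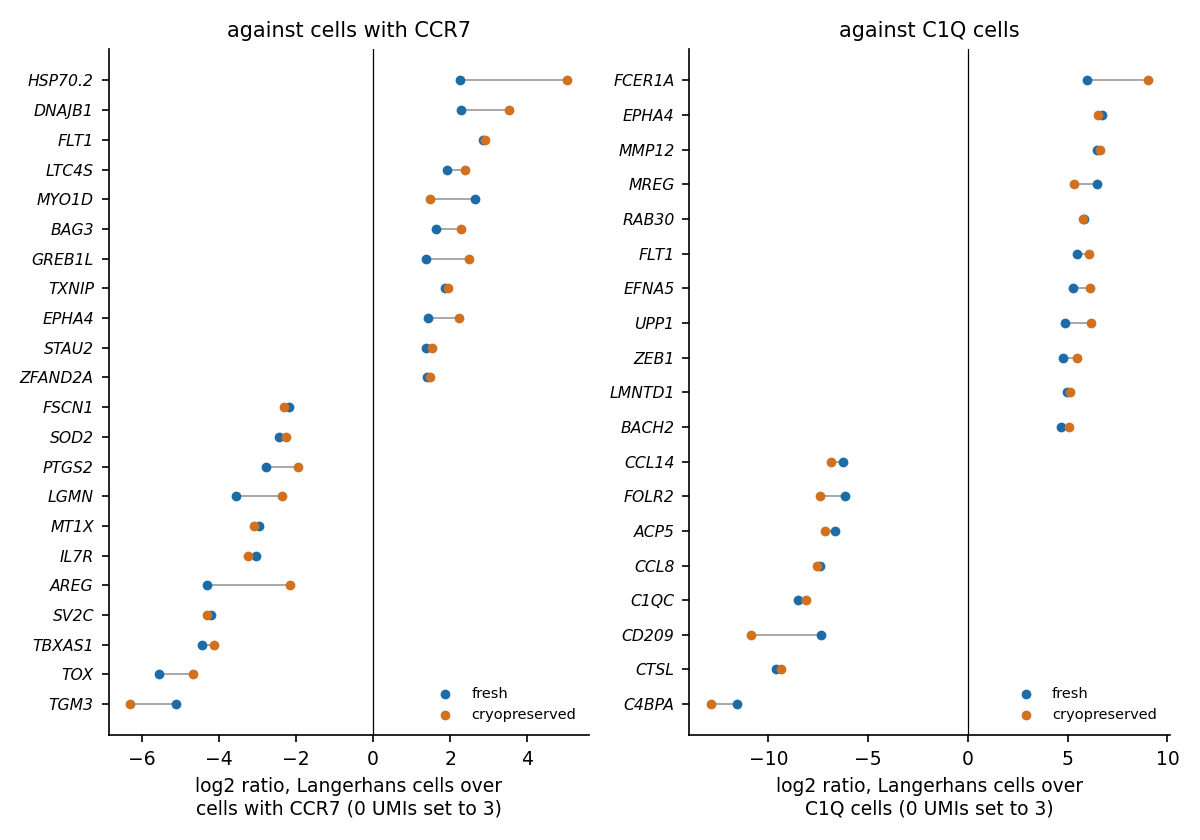
Log2 ratio of levels (x axis), Langerhans cells over cells with CCR7 (left) and over C1Q cells (right), for the genes named by rank, leaving out those of the rule and those without a symbol; blue points are the fresh and orange points the cryopreserved library, and 0 UMIs were set to 3. HSP70.2, DNAJB1 and FLT1 lie highest on the left, and C4BPA lowest on the right, where the cryopreserved FCER1A point (9.03) rests on 1 UMI in C1Q cells.

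Set against all other filtered cells, among 12727 measured genes, 1424 (11.2%) were at least 2-fold higher and 2225 (17.5%) at least 2-fold lower in both libraries. These counts rest on the filter and on setting 0 UMIs to 3: 477 of the 1424 had no UMI in the Langerhans cells of at least 1 library, and such a gene is not shown to be higher. Among 2859 genes with at least 50 UMIs in each group over both libraries, 614 (21.5%) were higher and 86 (3.01%) lower. The split also moved to 2087 higher and 1901 lower with at least 2 CD207 UMIs, so no direction is read from it. The highest by rank, beside CD207, were MMP12 (log2 6.0 and 6.01), the succinate receptor SUCNR1 (5.25 and 5.35), the nuclear factor ST18, the leukocyte kinase PIK3CG, CXorf21 and the phospholipase PLCB2, among those with a symbol. CCR7 cells held the first of these at like levels, MMP12 at 153 and 130 CPM against 217 and 164 and SUCNR1 at 215 and 177 against 219 and 199. SUCNR1 was seen in 15 of 26 and 25 of 59 cells and ST18 in 3 and 11. Of 15 lineage genes that met this minimum in each group, 13 were higher, CD207 by the rule, and 0 lower. Against CCR7 cells 0 of 15 were higher and 0 lower, so the list does not set Langerhans cells apart from those. CDH1, with 11 and 18 UMIs in Langerhans cells, missed the minimum and stood at log2 -2.61 and -2.82. Of 8 epithelial adhesion genes that met it, 2 were higher, EPCAM and the integrin chain ITGB7, and 2 lower, the catenin CTNNB1 and the tetraspanin CD9. The plot of list levels by group sets the programs beside each other.

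**Figure D3:**
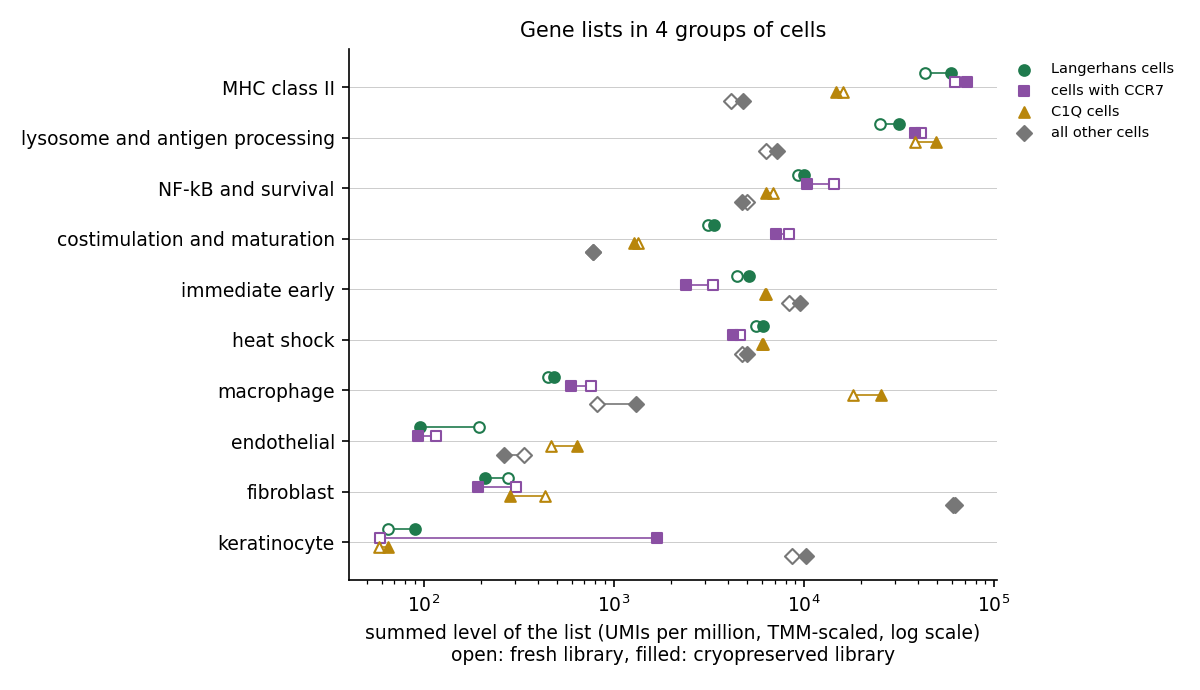
Summed level of each gene list in CPM (x axis, log scale) for the 4 groups of cells, open symbols for the fresh and filled symbols for the cryopreserved library. The MHC class II list lies at 43432 and 59084 in Langerhans cells, between C1Q cells and cells with CCR7. The macrophage list, at 452 and 486 in Langerhans cells, holds C1QA and C1QB, which set both these cells and the C1Q cells.

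Marker lists of other cell types were read against the levels in other cells, and those of macrophages, fibroblasts and keratinocytes hold genes that the rule limits. The macrophage list summed to 452 and 486 CPM, against 818 and 1303 in all other cells and 18008 and 25484 in C1Q cells. Without C1QA and C1QB, which the rule uses, it stood at 449 and 468, against 393 and 607 in all other cells and 8092 and 11371 in C1Q cells, so it was not lower than in all other cells of the fresh library. Its most abundant gene was CSF1R, and MARCO was at 0. The fibroblast list summed to 276 and 209 against 61046 and 62602 in all other cells, led by COL1A2 and COL1A1, with FBLN1 and DPT at 0. Its 7 genes outside the rule summed to 48.7 and 40.5, against 10658 and 10475 in all other cells. The keratinocyte list summed to 65.0 and 89.7 against 8664 and 10203, and KRTDAP, its most abundant gene, came from 1 cell in each library, with 10 and 15 UMIs. Without KRT5 it stood at 54.1 and 66.9, against 5065 and 6086. The endothelial list had 72 and 54 UMIs and was lower than in all other cells (336 and 265 CPM), led by PECAM1, which leukocytes also express. The T or NK cell list summed to 108 and 96.8 against 121 and 145 in all other cells. Of its 11 matched genes, 6 were at 0, among them LCK, CD5 and CD8A, with CD3E at 0 by the rule. The mast cell list was higher than in all other cells, at 560 and 595 against 181 and 159 CPM. Of its genes HDC was at 0 and KIT gave 0 and 13 UMIs, while FCER1A and MS4A2, subunits of the IgE receptor, gave most of that list. MITF, which myeloid cells also express, was the sole melanocyte gene found, at 490 and 611 CPM against 188 and 137 for that list in all other cells, and all 5 Merkel cell genes were at 0. The conventional dendritic cell list was higher than in all other cells, at 977 and 1107 against 264 and 241 CPM. It stood at 944 and 1102 in C1Q cells and at 1930 and 1387 in CCR7 cells. The monocyte or granulocyte list summed to 138 and 104 against 476 and 424 in all other cells. For the B or plasma cell list it was 37.9 and 58.1 against 71.9 and 75.1.

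A single fresh cell went against the label. It carried 1 CD207 UMI, 10050 UMIs in all, no UMI of SLA-DRA, TYROBP, SPI1 or BCL2A1, and 5 of CD74. It held all 124 fresh UMIs of IL6, a cytokine of the acute phase, 228 of the 232 of the monocyte attractant CCL2, and all 46 of the aggrecanase ADAMTS4, chosen after its values were seen. The pericyte receptor PDGFRB (5 of 5) and the contractile gene TAGLN (7 of 7) were found in no other fresh Langerhans cell, while the other 6 genes of that list (ACTA2, MYH11, RGS5, NOTCH3, CNN1 and DES) were at 0 in it. Its fibroblast list value, 8.96 per 10000 UMIs, was the highest of the fresh cells. COL6A1 gave 3 of 5 and SPARC 3 of 11 UMIs in it, while COL3A1, DCN, LUM and PDGFRA were at 0. Without this cell, the fresh library had 0 IL6 and 4 CCL2 UMIs, and the genes at least 2-fold apart numbered 111 against CCR7 cells and 825 against C1Q cells, in place of 106 and 819.

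Dividing cells were few. At least 3 of 10 matched cell cycle genes were seen in 1 of 26 fresh and 5 of 59 cryopreserved cells. PCNA, the replication clamp, was the most abundant of them with 15 and 40 UMIs. TOP2A, a topoisomerase of late cycle, gave 3 UMIs in 1 fresh cell and 17 in 3 cryopreserved cells.

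Within the Langerhans cells, immediate early levels were lower in cells with 4 or more CD207 UMIs than in cells with 1. Summed over 14 matched immediate early genes, which respond within minutes to stimuli such as tissue dissociation, fresh cells with 1 CD207 UMI had a median of 36.8 per 10000 UMIs of the cell (9.26 to 398), and those with 4 or more a median of 21.0 (7.48 to 56.7). Cryopreserved cells had medians of 58.1 (16.6 to 229) and 24.0 (10.5 to 76.2). Cells with 2 or 3 CD207 UMIs had medians of 51.6 in the 4 fresh cells, above those with 1, and 36.7 in the 14 cryopreserved cells. A value over 100 was reached by 2 of 11 and 5 of 21 cells with 1 CD207 UMI, by 1 of 4 and 3 of 14 with 2 or 3, and by 0 of 11 and 0 of 24 with 4 or more. The groups overlapped in both libraries. Heat shock medians were also lower in cells with 4 or more CD207 UMIs than in cells with 1. From the fewest to the most CD207 UMIs they were 71.4, 20.3 and 35.9 in fresh cells and 47.8, 38.0 and 38.8 in cryopreserved cells, with overlap between the classes.

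FOS, a subunit of the AP-1 factor, shows the same difference in summed counts. Scaled by the cells' own total, it stood at 1785 CPM in fresh cells with 1 CD207 UMI and 214 in those with 4 or more, and at 2348 and 271 in cryopreserved cells. Of the 245 FOS UMIs behind the fresh value of 1785, 159 came from 1 cell, which had 9.26% mitochondrial UMIs and the highest immediate early value, and without it the value was 672 CPM. The cryopreserved value of 2348 also came mostly from few cells, with 143, 65, 64 and 47 FOS UMIs, against 0 to 22 in the others. BCL2A1 went the other way, at 838 and 1942 in fresh and at 1375 and 2358 in cryopreserved cells, as did SLA-DRA, at 6432 and 9684 and at 6472 and 11576. The fresh cell that lacks SLA-DRA is among those with 1 CD207 UMI, and without it they stood at 6940. Medians of the summed MHC class II genes per 10000 UMIs, from the fewest to the most CD207 UMIs, were 414, 397 and 437 in fresh and 514, 439 and 601 in cryopreserved cells, so the middle class was lowest in both libraries.

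Depth moved along with the CD207 count. The median depth was 10050 UMIs in fresh cells with 1 CD207 UMI and 14489 in those with 4 or more, and 7506 and 10481 in the cryopreserved library. The mitochondrial median was 4.49% and 3.61% in fresh and 4.85% and 3.98% in cryopreserved cells. The part of depth, of mitochondrial share and of cells with stray CD207 in these differences was not tested.

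**Figure D4:**
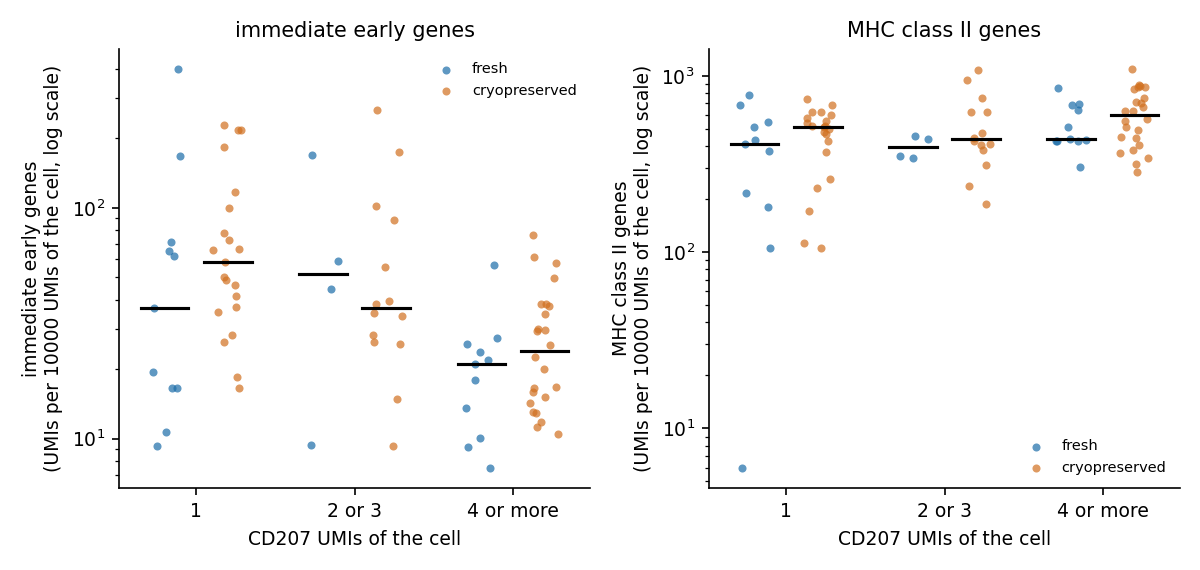
Each point is 1 Langerhans cell (blue fresh, orange cryopreserved), grouped on the x axis by its CD207 UMIs; the y axes give UMIs of the immediate early genes (left) and the MHC class II genes (right) per 10000 UMIs of the cell, on log scales, and black bars are medians. Immediate early values over 100 occur only below 4 CD207 UMIs, and the lowest MHC class II value, 5.97, is the fresh cell that lacks SLA-DRA.

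Between cryopreserved and fresh Langerhans cells most measured genes lay within 2-fold. Depth was lower in the cryopreserved library, at a median of 8502 UMIs (3120 to 22867) against 12368.5 (6038 to 20151), a ratio of 0.687 with an interval of 0.498 to 1.06. The same ratio was 0.729 in CCR7 cells, 0.801 in C1Q cells and 0.722 in all other cells. The median number of genes was 2430 against 3010, and the mitochondrial median 4.0% against 3.86%. Among 2859 genes with at least 50 UMIs over both libraries, 115 (4.02%) were at least 2-fold higher and 78 (2.73%) at least 2-fold lower in the cryopreserved library. With total UMIs the split was 78 higher and 136 lower, with DESeq2 size factors 92 and 97, and without the fresh cell that lacks SLA-DRA 94 and 81.

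The median absolute log2 ratio was 0.35 (interval 0.33 to 0.36) in Langerhans cells, against 0.38 in CCR7 cells, 0.29 in C1Q cells and 0.25 in all other cells, which hold far more UMIs. Scaling by total UMIs moves every such ratio down by 0.15, so smaller ratios have no settled sign. In 2687 of the 2859 genes, and in 187 of the 193 at least 2-fold apart, 1 cell held over 10% of the gene's UMIs in a library.

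Few genes of the main programs were 2-fold apart, as over all measured genes (4.02% higher and 2.73% lower), so these counts set no program apart. None of the 10 measured MHC class II genes was 2-fold apart in either direction, with a median log2 ratio of 0.32 against 0.05 over all measured genes. CD74 stood at 21085 and 28215 CPM (log2 0.42), SLA-DRA at 7226 and 9718 (0.43), and CIITA at 357 and 194 (-0.88). CIITA passed 2-fold with scaling by total UMIs (-1.03) and without its highest cell in each library (-1.06). None of the 15 measured lineage genes was 2-fold apart, with BCL2A1 at 1370 and 1964 (0.52). The same held for the 13 measured lysosome genes, the 12 NF-kB and survival genes and the 12 heat shock genes, with medians of 0.28, 0.08 and 0.19. RBM3, an RNA-binding protein induced by cold, stood at 206 and 341 (log2 0.73, against 0.56 in all other cells).

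A few genes of the lists were 2-fold apart. CALR, a chaperone of the endoplasmic reticulum that loads MHC class I, had 75 fresh and 253 cryopreserved UMIs (log2 1.13, interval 0.76 to 1.52) and was also higher in all other cells (0.86). CLDN1, a tight junction claudin, had 16 and 77 (1.65), in 6 of 26 and 12 of 59 cells. ISG15, a ubiquitin-like interferon response protein, had 14 and 61 (1.5), in 8 and 16 cells. With the cell holding most UMIs of each gene left out of each library, these ratios were 1.12, 1.59 and 1.28. The calls of CALR and of FSCN1, which had 16 and 51 UMIs (1.05), were lost with scaling by total UMIs. KLF2, a factor of quiescent leukocytes, had 37 and 13 UMIs (-2.13), and 18 of the 37 came from 1 cell. CCL2 (232 and 14) and IL6 (124 and 5) owe their ratios to the fresh cell described above.

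The genes furthest apart without resting on 1 cell included mitochondrial, ribosomal and nuclear ones. Among the 172 genes in which no cell held over 10% of the UMIs, a limit not asked of a library with under 10 UMIs of the gene, ND4L, a mitochondrial subunit of complex I, had 41 and 172 UMIs (log2 1.45, and 0.96, 0.96 and 0.87 in CCR7, C1Q and all other cells). PTMA, the nuclear protein prothymosin alpha, had 1027 and 3041 (0.94), RPS28 170 and 519 (0.99), NDUFB9, another complex I subunit, 52 and 154 (0.94), MRPL52, of the mitochondrial ribosome, 9 and 43 (1.63), the chromatin protein HMGN3 9 and 41 (1.57), and the general transcription factor GTF2B 20 and 65 (1.08). ENSSSCG00000003903, without a symbol, had 8 and 59 (2.26). Under total UMIs GTF2B stood at 0.93.

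On the lower side no gene of that set reached 2-fold. MAP4, a microtubule-associated protein, had 104 and 84 UMIs (log2 -0.93), RPS16 212 and 198 (-0.72), the mitochondrial COX3 2738 and 2559 (-0.72), the glucocorticoid receptor NR3C1 120 and 123 (-0.59), the signal transducer STAT3 143 and 142 (-0.63) and the hexokinase HK1 92 and 95 (-0.58). The row named FLT3LG had 256 and 226 (-0.80), and RefSeq lists that name as a synonym of RPL13A, so the row may count that ribosomal gene. B2M, the light chain of MHC class I, had 1288 and 1162 (-0.77), with -0.89, -0.82 and -0.53 in the other groups. ND3, named after its values were seen, had 355 and 122 (-2.16), with -2.69, -2.67 and -2.37 in CCR7, C1Q and all other cells.

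The same genes were followed in the other groups. Of the 115 higher genes, 78 were on the same side in all other cells, 4 of them 2-fold and 0 at least 2-fold lower, where 232 of 14414 measured genes were 2-fold higher. Of the 78 lower genes, 69 were on the same side there, 4 of them 2-fold, and 1 was at least 2-fold higher, where 171 were 2-fold lower. Of the 2859 genes measured in Langerhans cells, 41.6% were on the higher and 58.4% on the lower side in all other cells. In CCR7 cells 15 of 94 measured higher genes were 2-fold higher and 5 at least 2-fold lower, and 14 of 55 lower genes were 2-fold lower and 1 higher, where 89 (2.76%) and 205 (6.37%) of 3220 measured genes were 2-fold higher and lower. In C1Q cells 9 of 104 higher genes were 2-fold higher and 1 lower, and 4 of 68 lower genes were 2-fold lower and 0 higher, where 115 (1.95%) and 96 (1.63%) of 5904 were. The groups come from the same pair of libraries, so these counts are not independent.

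**Figure D5:**
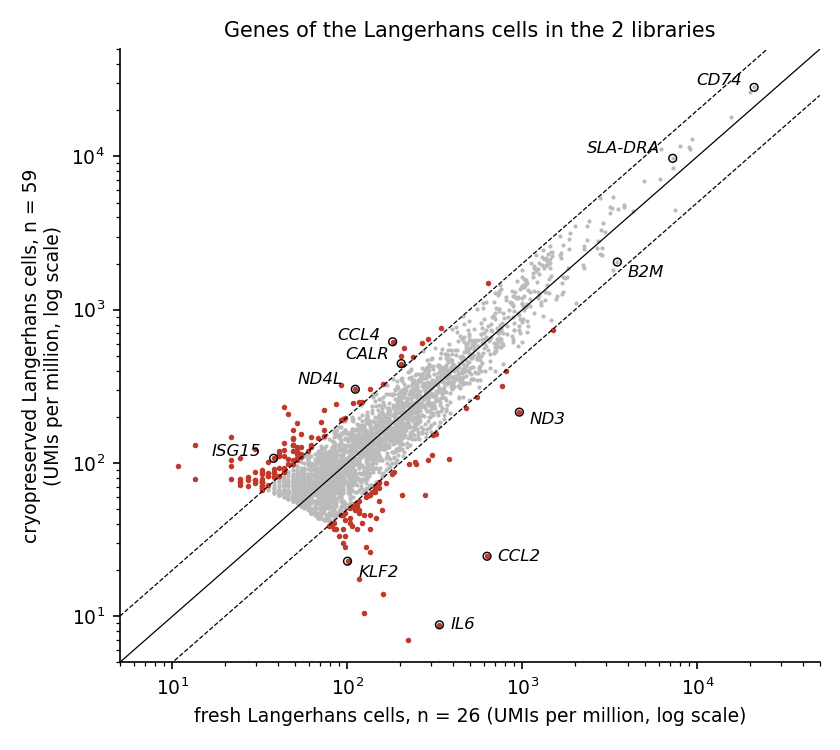
Each point is 1 of the 2859 measured genes, with its level in fresh (x axis) and cryopreserved (y axis) Langerhans cells in CPM, both on log scales; the solid line marks equal levels, dashed lines 2-fold, and red points lie at least 2-fold apart. CD74 and SLA-DRA lie near the line, IL6 and CCL2 far below it through 1 fresh cell, and genes with 0 UMIs in a library are not drawn.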

How the data were processed

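The authors mapped the reads to Sscrofa11.1 with the Ensembl annotation (Cell Ranger 4.0.0, STAR 2.5.1b) and deposited raw counts of UMIs per gene and barcode for each library, 53271738 fresh and 42217632 cryopreserved UMIs in 4379 and 4860 barcodes. Cells with up to 4500 genes, 30000 UMIs and 10% mitochondrial UMIs (13 protein genes) were kept. The cells were gated on counts, and the gate, gene lists and comparisons were chosen with earlier results of these data known. UMIs were summed over the cells of a group in each library (342889 fresh and 583550 cryopreserved for the Langerhans cells) and scaled with TMM factors of edgeR 4.0.16. With 1 library per condition no test was run: genes with at least 50 UMIs were called by size, a log2 ratio of at least 1, a count of 0 being set to 3. Comparisons with other cells ask for that size in the same direction in both libraries. Intervals are 95% (Clopper-Pearson, Newcombe, order statistics, or conditional for ratios of Poisson counts).

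Named genes are those of the lists, the 10 highest and 10 lowest between the libraries where no cell held over 10% of the UMIs (not asked of a library with under 10), and the 12 highest and 12 lowest against other cells by the smaller ratio. Genes without a symbol were counted and at most 2 printed. Of 31908 genes, 16719 were named in the files, 782 through a table of names, and 14407 had no name; 304 of 349 list genes matched. Coordinates are from RefSeq on the same build. The authors describe a sort that gates out doublets by scatter and a magnetic alternative. Their summary names the sort as a possible step before library preparation, while their library methods name neither. Scrublet (scanpy 1.11.5) marked 2 fresh and 39 cryopreserved cells, of which 0 and 1 were Langerhans cells, and none were removed except in 1 alternative. The counting of strand is not given in the sources used here, so overlapping genes may share UMIs. The summing and ratios were tested on simulated data.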

Additional observations from a re-analysis of the deposited data

Results flagged for a closer look

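CCL4, a chemokine for T cells and monocytes, stood in opposite directions in neighbouring groups. In Langerhans cells it had 67 fresh and 351 cryopreserved UMIs, a log2 ratio of 1.77, while in CCR7 cells it had 200 and 46, a log2 ratio of -1.86. It was seen in 10 of 26 fresh and 23 of 59 cryopreserved Langerhans cells, and 39 of the 67 and 129 of the 351 UMIs came from 1 cell each. Without these cells the ratio in Langerhans cells was 2.20, from 28 and 222 UMIs. The difference between the groups was not tested.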

How the results depend on the processing

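No paired analysis was possible because each condition is 1 library. The share difference (0.359 to 0.549 percentage points) and the depth ratio (0.667 to 0.701) moved by less than their intervals under the alternatives tried. The count of genes at least 2-fold apart between the libraries was 649, 53 and 2056 with a minimum of 20, of 100 and of 1 UMI. With cells thinned to 1000 UMIs it was 36, and 14 when these were scaled by total UMIs, an alternative chosen after seeing the data. The median absolute log2 ratio was then 0.53 and 0.37, and 0.40, 0.31 and 0.52 with those minimums, 0.40 with at least 2 CD207 UMIs and 0.37 without any CCR7 UMI. Against CCR7 cells the count was 236, 61 and 556 with those minimums and 68 with at least 2 CD207 UMIs. Against C1Q cells it was 1282, 528 and 1767, and against all other cells 8298 with a minimum of 1. With at least 50 UMIs in each group over both libraries, chosen after seeing the data, these 3 counts were 66, 407 and 700. Fewer or more genes are measured under these minimums. Under at least 2 CD207 UMIs the fresh log2 ratio to CCR7 cells turned to -0.070 for BAG3 and -0.44 for ZFAND2A. Without each gene's highest cell it turned to 0.057 for TGM3 (fresh), with no TGM3 UMI left in Langerhans cells and 0 set to 3, and 0.080 for MT1X (cryopreserved), with 10 UMIs left. FOS in fresh cells with 1 CD207 UMI moved from 1785 to 672 CPM without its highest cell, also chosen after seeing the data. The cause of these moves was not tested. For list medians 264 values stayed within their limits and 24 moved, and for named genes 942 and 14. DESeq2 size factors split the calls against CCR7 cells into 42 higher and 63 lower.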

Other observations

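HMOX1, the heme oxygenase, chosen here after its values were seen, had 102 fresh and 35 cryopreserved UMIs in Langerhans cells, a log2 ratio of -2.16, and 81 of the 102 came from 1 cell. The ratio was 1.24 in CCR7 cells, 0.96 in C1Q cells and 1.05 in all other cells. HBB, the beta globin of red cells, gave 56 and 119 UMIs in Langerhans cells.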
